A study of Mus musculus with 21 samples.

Results

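The mitochondrially encoded genes are the genes carried by the small circular DNA inside mitochondria. They were found here as every gene of the count tables whose mouse symbol begins with mt-, after the Ensembl gene identifiers had been matched to symbols. There were 37 of them among 53801 gene identifiers: 13 messenger RNA genes, 22 transfer RNA genes and 2 ribosomal RNA genes. Gm28438 and Gm10222, annotated on chromosome 1 as copies of mt-Nd3 and mt-Nd4l, were followed beside them.

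The series holds 15 mouse hearts and 6 libraries of cultured fibroblasts. All heart tissue was taken on day 7 and is labelled border zone, sham included, and its total RNA was sequenced. The sham hearts (n = 3) were wild type and had a sham operation. The MI hearts (n = 4) were wild type with a myocardial infarction. The FAPI hearts (n = 4) were wild type with an infarction and FAPI treatment, an inhibitor of fibroblast activation protein, and the FapKO hearts (n = 4) carried a knockout of Fap, the gene for that protein, and had an infarction. No FAPI-treated or FapKO heart without an infarction was analysed here. Strain, age, the FAPI compound, its dose and the knockout construct were not given in the sources used here. The fibroblasts were kept for 7 days in a hydrogel of 5% GelMA, a modified gelatin, and their polyadenylated RNA was sequenced. In 3 libraries they were cultured alone and not sorted. In the other 3 they were cultured at 2:1 with cardiac and lung endothelial cells and then sorted as CD45-, CD31- and Pdgfra+ cells. The labels do not say that each library came from its own animal or culture, so the p-values measure the spread between these libraries, which may be technical.

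Mitochondrial DNA is read from both strands into long precursor RNAs, which are cut into separate messenger, ribosomal and transfer RNAs, many of them at the transfer RNAs that stand between the other genes. The messenger RNAs encode core subunits of respiratory complexes I, III and IV and of ATP synthase, whose remaining subunits come from the nucleus. Heart muscle cells are packed with mitochondria, and mitochondrially encoded RNA is a large part of the RNA of heart tissue.

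The libraries held 18474138 to 37287355 counts in the hearts, with every count assigned to a gene. In the fibroblasts they held 4735337 to 6346015 counts in coculture and 12871240 to 15650221 alone, also all assigned to genes. Fap, the targeted gene, was lower in FapKO than in MI hearts by edgeR's quasi-likelihood test (log2 change -2.36, SE 0.163, adjusted p = 6.94e-08). Levels are given as CPM, counts brought to 1 common library total and scaled by the trimmed mean of M values (TMM), and a call means an edgeR adjusted p under 0.05 over all tested genes. Of the 37 members, 24 passed the filter on low counts in the hearts and 13 in the fibroblasts. The 24 were 9 messenger RNA, 13 transfer RNA and 2 ribosomal RNA genes.

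The coverage of the 37 genes was uneven. In the hearts 5 members had no count in any library, 7 had a highest library under 10 counts, 13 reached 10 counts but not 1000, and 12 reached 1000 or more. The 5 without a count were the transfer RNA genes mt-Ty, mt-Ts1, mt-Tk, mt-Tg and mt-Th. A count of 0 allows up to 3 counts, which is 0.0805 to 0.162 CPM without TMM scaling in the hearts. In the fibroblasts 10 members had no count in any library, among them 7 transfer RNA genes, and there the limit was 0.192 to 0.634 CPM. These limits cover counting error alone.

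Many of the near-empty genes lay side by side, in a stretch that the nuclear genome also holds. On chromosome 1 of mm10, the build the deposited counts used, 6 annotated copies stand in a row on the minus strand at chr1:24612407-24616197, a stretch of 3791 bases. The outermost copies align to chrM:6381-10170, 3790 bases that hold 10 mitochondrial genes whole, from mt-Ts1 to mt-Tr, with 294 of the 297 bases of mt-Nd4l and part of mt-Co1. Of the 11 genes from mt-Ts1 to mt-Nd4l, mt-Atp6, mt-Nd3 and mt-Tr passed the filter in the hearts. The messenger RNA genes mt-Co2, mt-Co3, mt-Atp8 and mt-Nd4l had at most 5 counts in any heart. They encode subunits of cytochrome c oxidase (mt-Co2, mt-Co3), ATP synthase (mt-Atp8) and complex I (mt-Nd4l). Reads from a gene and from a copy with the same bases cannot be told apart by sequence, and how the authors' counting treated reads that match both places is not given in the sources used here. The levels of all members in this stretch and of the copies are therefore uncertain.

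**Figure D1:**
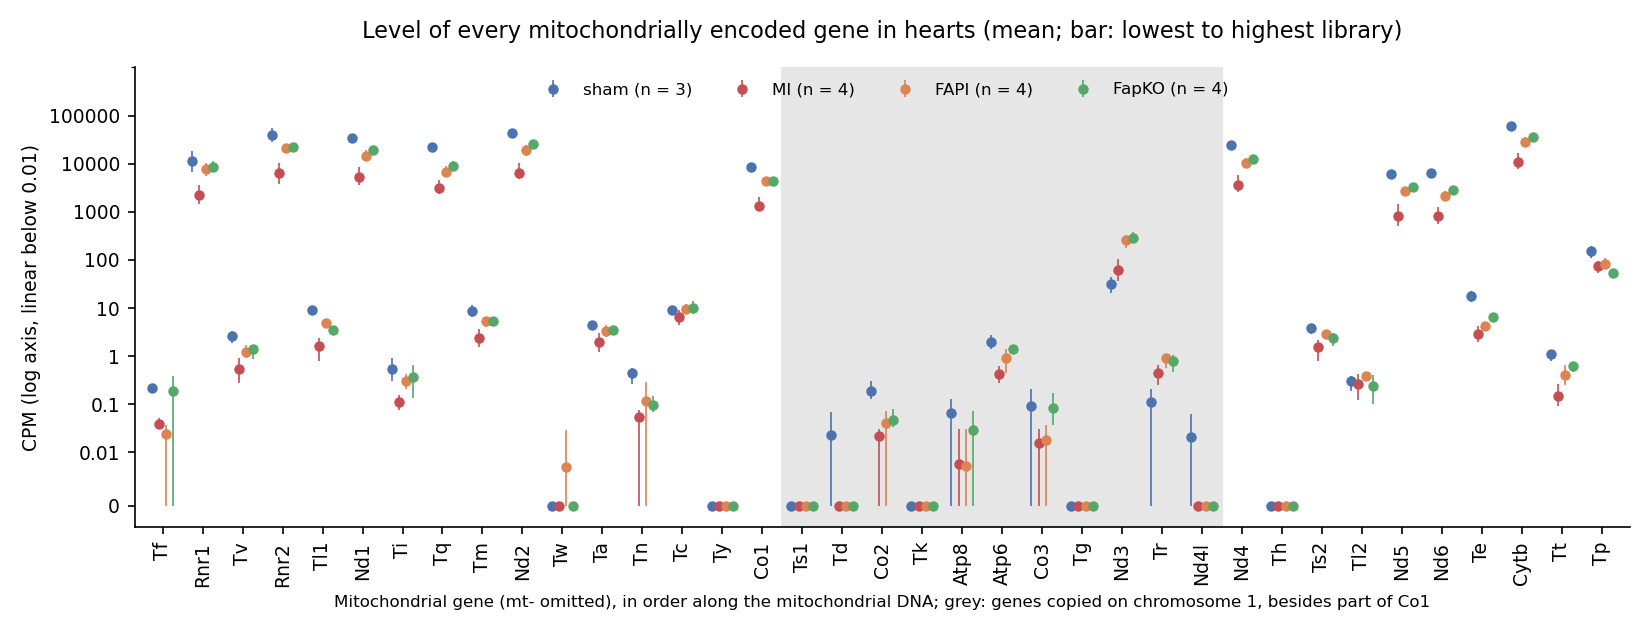
CPM of the 37 genes in their order along mitochondrial DNA, as group means with bars from the lowest to the highest library, in sham, MI, FAPI and FapKO hearts. The vertical axis is logarithmic and linear below 0.01, and grey shading marks the stretch that chromosome 1 also holds, where most genes sit near 0.

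The sequences of the copied genes are shown because the counts of mt-Nd3 and Gm28438 moved in opposite directions between groups. Over 345 aligned bases Gm28438 differs from mt-Nd3 by 1 base, T3C (mt-Nd3 first, positions counted from 1 at the first base of mt-Nd3, chrM position 9461). Gm10222 is identical to mt-Nd4l over all 294 aligned bases. The first 60 bases of each gene, in mm10, read as follows, with the differing base in capitals.
mt-Nd3: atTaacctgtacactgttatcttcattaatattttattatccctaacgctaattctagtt
Gm28438: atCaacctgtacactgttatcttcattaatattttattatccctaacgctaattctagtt
mt-Nd4l: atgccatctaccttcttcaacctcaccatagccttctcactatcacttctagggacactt
Gm10222: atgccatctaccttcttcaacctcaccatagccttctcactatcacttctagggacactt

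Gm28438 lies at chr1:24612775-24613119 and mt-Nd3 at chrM:9459-9806. The other 4 copies were also close to their mitochondrial genes: Gm28437 was identical to mt-Co3 over 783 bases, Gm10925 to mt-Atp6 over 678, Gm28661 to mt-Co2 over 681, and Gm29216 matched mt-Co1 at 486 of 492 bases. The transfer RNA gene mt-Tr (arginine) stands between mt-Nd3 and mt-Nd4l at chrM:9808-9875. It is shown with mt-Tq (glutamine), mt-Ti (isoleucine), mt-Tp (proline) and mt-Tt (threonine) because the levels of these short genes differed widely. Capitals mark the longest run of A in mt-Tr, bases 14 to 21, and the 3 bases at which mt-Tq and mt-Ti overlap on opposite strands.
mt-Tr: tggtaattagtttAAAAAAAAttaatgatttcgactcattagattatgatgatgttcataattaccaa
mt-Tq: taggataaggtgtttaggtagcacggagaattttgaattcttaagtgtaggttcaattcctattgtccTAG
mt-Ti: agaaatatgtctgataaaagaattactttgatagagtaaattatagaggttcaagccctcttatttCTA
mt-Tp: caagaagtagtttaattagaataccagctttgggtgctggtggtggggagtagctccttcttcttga
mt-Tt: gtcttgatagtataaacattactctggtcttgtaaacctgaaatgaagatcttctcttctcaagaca

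On the scale of CPM per kilobase of gene, without TMM scaling, mt-Tq had the highest level of all members in sham hearts, at 2.017e+05. The messenger RNA gene mt-Cytb followed at 3.552e+04, mt-Nd2 at 2.746e+04 and mt-Nd1 at 2.351e+04 CPM per kilobase. Lower on this scale were mt-Rnr2 (1.675e+04), mt-Nd4 (1.167e+04), mt-Nd6 (8196), mt-Rnr1 (7786), mt-Co1 (3594), mt-Nd5 (2199) and mt-Tp (1494). In the copied stretch mt-Nd3 reached 60.1 and mt-Atp6 1.93 CPM per kilobase, and mt-Co2 was at 0.182. This scale divides by gene length, only 71 bases for mt-Tq, and so places short genes high. By counts mt-Tq took 8.45% of the members' counts in sham hearts. That was below mt-Cytb (24.1%), mt-Nd2 (16.9%), mt-Rnr2 (15.25%), mt-Nd1 (13.3%) and mt-Nd4 (9.49%). The strand setting of the counting is not given in the sources used here, so reads from mt-Tq, mt-Tp, mt-Nd6 and the other minus-strand members cannot be told apart from reads of the opposite strand. Neighbours also overlap: mt-Nd5 and mt-Nd6 share 14 bases on opposite strands, mt-Nd1 and mt-Ti share 2, and mt-Ti and mt-Tq share 3.

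Mitochondrially encoded RNA fell after infarction and was higher in infarcted hearts with FAPI or without Fap than in untreated infarcted hearts. The 37 genes took 15.2, 16.3 and 19.6% of the counts in the sham hearts. In the MI hearts the same share was 4.18, 4.92, 8.03 and 5.28%. The FAPI hearts had 10.9, 12.8, 11.2 and 13.2%, and the FapKO hearts 14.1, 12.99, 13.7 and 14.1%. MI hearts lay below every other heart, and sham hearts lay above every infarcted heart.

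The 3 classes of RNA kept this order only in part. Messenger RNA genes took 12.2% ± 0.652 (SD, n = 3) of the counts in sham, 3.99% ± 1.21 (SD, n = 4) in MI, 8.34% ± 1.01 (SD, n = 4) in FAPI and 9.91% ± 0.400 (SD, n = 4) in FapKO hearts. Ribosomal RNA genes took 3.39% ± 1.51 in sham, 1.18% ± 0.438 in MI, 3.01% ± 0.355 in FAPI and 2.96% ± 0.437 in FapKO hearts. For ribosomal RNA the sham, FAPI and FapKO ranges overlapped, and the MI hearts lay below all of them. Transfer RNA genes took 1.45% ± 0.200 in sham, 0.433% ± 0.102 in MI, 0.705% ± 0.101 in FAPI and 0.864% ± 0.173 in FapKO hearts. Almost all of that was mt-Tq and mt-Tp, since the other 20 transfer RNA genes together took 0.00252 to 0.00385% on average.

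**Figure D2:**
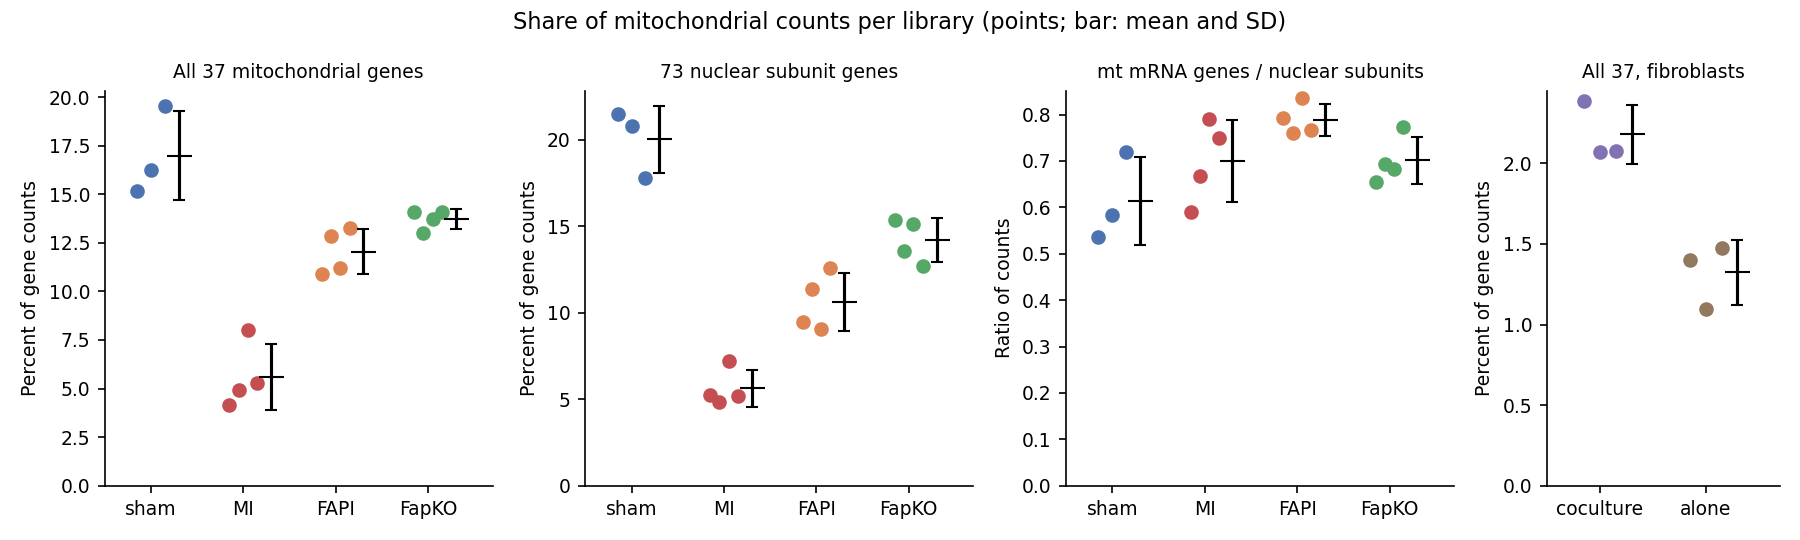
Share of counts from the 37 mitochondrially encoded genes, share from 73 nuclear genes for subunits of complexes I, III, IV and V, the ratio of mitochondrial messenger RNA to those nuclear subunits, and the mitochondrial share in fibroblasts. Points are libraries and bars are means with SD, and the MI hearts are lowest in both shares.

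The nuclear genes for the same complexes were lowest in MI hearts as well. The 73 listed subunit genes took 20.0% ± 1.95 of the counts in sham, 5.63% ± 1.09 in MI, 10.6% ± 1.65 in FAPI and 14.2% ± 1.27 in FapKO hearts. The ratio of mitochondrial messenger RNA to these nuclear subunits was 0.536 to 0.719 in sham hearts, 0.590 to 0.791 in MI, 0.760 to 0.836 in FAPI and 0.654 to 0.774 in FapKO hearts. The ratio overlapped between MI and each other group, and the FAPI range lay above the sham range.

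Levels of cardiomyocyte RNA moved with these shares. The summed level of 20 cardiomyocyte marker genes was 118570 to 138040 CPM in sham hearts, 14177 to 42074 in MI, 47348 to 84682 in FAPI and 69640 to 83672 in FapKO hearts. All 20 were lower in MI than in sham and higher in FAPI and in FapKO than in MI by edgeR's test, and none was at 0. The marker Cox6a2, at 15020, 15070 and 11580 CPM in sham hearts, is also among the 73 nuclear subunit genes. The ratio of mitochondrially encoded to cardiomyocyte marker counts was 1.99 ± 0.327 (SD, n = 3) in sham, 1.85 ± 0.290 (SD, n = 4) in MI, 1.91 ± 0.162 (SD, n = 4) in FAPI and 1.94 ± 0.106 (SD, n = 4) in FapKO hearts, with overlapping ranges. Macrophage markers, 12 genes, summed to 2222.4 to 2445.5 CPM in sham hearts, 7893.6 to 11009 in MI, 5168.7 to 9075.9 in FAPI and 3141.3 to 5917.5 in FapKO hearts. In bulk tissue, fewer cardiomyocytes and less mitochondrial RNA per cardiomyocyte cannot be told apart.

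Infarction was compared with the sham operation first. Of the 24 tested members 20 were lower and 2 were higher in MI hearts, and 2 did not pass the test, where 69.1% of all tested genes were called. Of all tested genes 32.0% were called lower. The median log2 fold change was -2.41 over the members and 0.14 over all tested genes. In 21 of the 24 the MI and sham hearts did not overlap, as in 67.5% of all tested genes. Of the called genes 53.7% were higher, and 86.1% with scaling by total counts, under which 16 members were called lower and 3 higher with a member median of -1.36 against 1.23 for all genes.

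The ribosomal RNAs form the cores of the subunits of the mitochondrial ribosome. The small-subunit RNA mt-Rnr1 was at 6766, 8138 and 18410 CPM in sham and at 1556, 2341, 3631 and 1447 CPM in MI hearts. It was 4.95-fold lower in MI (log2 change -2.31, SE 0.363, edgeR adjusted p = 3.02e-05). The large-subunit RNA mt-Rnr2 was at 28700, 36470 and 54640 CPM in sham and at 3767, 6221, 10280 and 5271 in MI hearts, 6.26-fold lower (log2 change -2.65, SE 0.301, edgeR adjusted p = 9.05e-07). For both, replicate 3 was the highest sham heart and replicate 3 the highest MI heart, and the groups did not overlap.

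The complex I genes mt-Nd1, mt-Nd2, mt-Nd4, mt-Nd5 and mt-Nd6 encode membrane subunits of NADH dehydrogenase, and all 5 fell. The level of mt-Nd1 was 33730, 34500 and 34670 CPM in sham and 3756, 3651, 8709 and 5412 CPM in MI hearts, 6.37-fold lower (edgeR adjusted p = 3.45e-07). That of mt-Nd2 was 42740, 44760 and 42980 CPM in sham and 4846, 4701, 10110 and 5849 in MI, 6.82-fold lower (edgeR adjusted p = 2.08e-07). Sham hearts were tightly grouped for both genes, and MI replicate 3 was the highest MI heart. The drop was 6.79-fold for mt-Nd4 and 7.46-fold for mt-Nd5 (log2 fold changes -2.76 and -2.90, SE 0.272 and 0.280, edgeR adjusted p = 1.79e-07 and 1.51e-07). The only messenger RNA on the minus strand of the reference, mt-Nd6, was at 6196, 6484 and 6756 CPM in sham and at 552.8, 624.2, 1275 and 819.8 in MI hearts. Its 7.92-fold drop (log2 change -2.99, SE 0.248, edgeR adjusted p = 3.05e-08) was the largest fitted fall among the 24 tested members.

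For complex III, mt-Cytb (cytochrome b) was at 62870, 63140 and 60110 CPM in sham and at 9103, 7602, 16750 and 10150 CPM in MI hearts. It was 5.69-fold lower in MI (log2 change -2.51, SE 0.271, edgeR adjusted p = 4.95e-07). For complex IV, mt-Co1, the catalytic subunit of cytochrome c oxidase, was at 9424, 8603 and 7492 CPM in sham and at 1152, 1061, 2008 and 1149 in MI, 6.34-fold lower (edgeR adjusted p = 5.22e-08). The ATP synthase gene mt-Atp6, in the copied stretch, was at 1.42, 2.74 and 1.86 CPM in sham and at 0.278, 0.361, 0.622 and 0.462 in MI, 4.64-fold lower (edgeR adjusted p = 3.7e-05). In each of the 3 genes the groups did not overlap.

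The transfer RNAs did not fall equally. The abundant mt-Tq was at 22550, 19310 and 23550 CPM in sham and at 2450, 2301, 4496 and 3066 in MI hearts, 7.08-fold lower (log2 change -2.82, SE 0.266, edgeR adjusted p = 1.12e-07). By contrast mt-Tp was at 190.2, 161 and 111.4 CPM in sham and at 71.6, 53.5, 95.1 and 75.0 in MI, 2.09-fold lower (log2 change -1.06, SE 0.206, edgeR adjusted p = 0.000243). Both fell without overlap, though the mt-Tp change was 0.01 on the log2 scale with scaling by total counts, where the median of all genes was 1.23. Also lower in MI were mt-Te (glutamate), mt-Tt, mt-Tl1 (leucine), mt-Ti, mt-Tv (valine), mt-Tm (methionine), mt-Ts2 (serine) and mt-Ta (alanine), with log2 fold changes from -2.79 (mt-Tt) to -1.18 (mt-Ta). For mt-Tc (cysteine) the log2 fold change was -0.51 (edgeR adjusted p = 0.0706) and for mt-Tl2 (leucine) -0.24 (adjusted p = 0.706). Under total-count scaling mt-Tc had a log2 fold change of 0.57.

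The genes mt-Nd3 and mt-Tr went the other way. The complex I gene mt-Nd3 was at 20.3, 29.9 and 44.2 CPM in sham and at 36.6, 43.4, 102 and 68.4 in MI hearts, 1.99-fold higher (log2 change 0.99, SE 0.331, edgeR adjusted p = 0.0137). The groups overlapped, and the call was lost without MI replicate 3 (0.66, adjusted p = 0.0534) and without sham replicate 1 (0.76, adjusted p = 0.0815). For mt-Tr there were 0, 2 and 3 counts in sham and 8, 21, 10 and 17 in MI hearts. The ratio of its summed counts per effective library size was 3.99 (exact 95% interval 1.61 to 12.8, counting error only). The fitted log2 fold change was 1.95 (SE 0.653, edgeR adjusted p = 0.0141), and the call was lost without sham replicate 1 (1.35, adjusted p = 0.0746). With so few sham counts, mt-Tr passed the filter only through infarcted hearts, where it was high. Its call is therefore no separate support for a rise. With only the MI and sham hearts in the fit, 21 members were tested and mt-Tr was not among them.

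On chromosome 1 Gm28438, the copy of mt-Nd3, shifted in the opposite direction, and Gm10222, the copy of mt-Nd4l, was also lower after infarction. Gm28438 was at 1026, 1125 and 1525 CPM in sham hearts. It was at 14.7, 15.1, 17.2 and 19.5 CPM in MI, at 18.01, 10.6, 11.8 and 10.5 in FAPI and at 23.0, 14.8, 17.4 and 21.9 in FapKO hearts. The 3 sham hearts stood far above all 12 infarcted hearts, with or without treatment or knockout. It was 73.8-fold lower in MI than in sham (log2 change -6.21, SE 0.236, edgeR adjusted p = 7.38e-11), 96.3-fold lower in FAPI and 63.6-fold lower in FapKO hearts. Gm10222 had 310, 381 and 291 counts in sham and 13, 16, 8 and 13 in MI hearts, and was 54.4-fold lower in MI (log2 change -5.77, SE 0.190, edgeR adjusted p = 1.44e-11). Its mitochondrial match mt-Nd4l had 1 count in 1 sham heart and none in the other 14 hearts.

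Counted together, mt-Nd3 and Gm28438 had 17001, 17698 and 22779 counts in sham, 1660, 2268, 3836 and 2282 in MI, 5771, 7244, 11670 and 8898 in FAPI and 6477, 8748, 6628 and 10168 in FapKO hearts. The sum was highest in the sham hearts and lowest in the MI hearts, without overlap between either and the rest. Of this sum Gm28438 took 97.2 to 98.1% in sham hearts, 14.4 to 28.7% in MI, 3.38 to 9.06% in FAPI and 4.97 to 8.29% in FapKO hearts. In the fibroblasts, with 87 to 409 counts for the pair, it took 1.10% ± 0.361 in coculture and 0.365% ± 0.379 alone (SD, n = 3 each). With the counts of each copy added to its mitochondrial gene, an alternative chosen after the data were seen, mt-Nd3 was lower than in sham in MI (log2 change -3.99), FAPI (-2.23) and FapKO hearts (-2.05), each past the edgeR threshold. The 1 base that separates the pair near their start was not read in these samples here, the strain of each group is not given in the sources used here, and the cause of the switch was not tested.

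**Figure D3:**
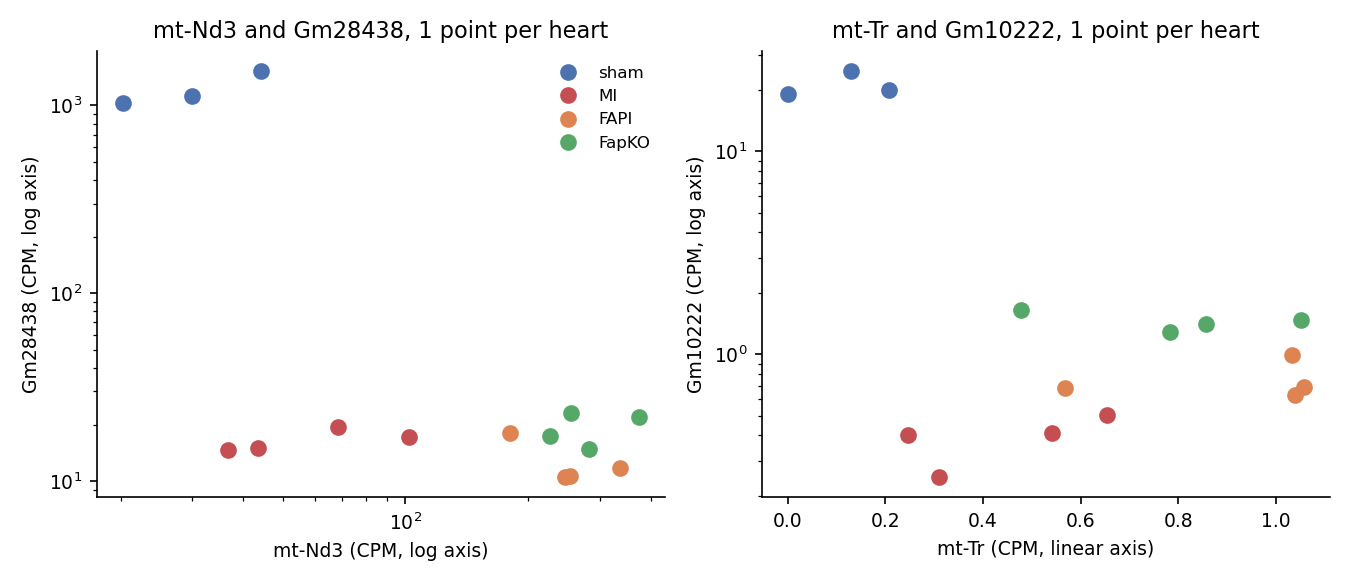
Level of Gm28438 against mt-Nd3 (both axes logarithmic) and of Gm10222 against mt-Tr (vertical axis logarithmic), in CPM, with 1 point per heart. The 3 sham hearts stand apart at high levels of both copies, and the 12 infarcted hearts lie together at low levels.

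The other 4 copies were also lower in MI than in sham hearts and higher in FAPI and FapKO than in MI hearts. In MI against sham hearts Gm28437, Gm28661, Gm29216 and Gm10925 had log2 fold changes of -2.42, -2.32, -2.58 and -2.01, each past the edgeR threshold. In FAPI against MI they had 1.32, 0.95, 1.58 and 0.96, and in FapKO against MI 1.63, 1.34, 1.87 and 1.62, again each past the threshold. Their counts were 13 to 275 per heart.

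FAPI-treated infarcted hearts were compared with untreated infarcted hearts. Of the 24 tested members 21 were higher in FAPI hearts, none was lower and 3 did not pass the test, where 29.8% of all tested genes were called and 17.9% were called higher. All 9 tested messenger RNA genes, both ribosomal RNA genes and 10 of 13 transfer RNA genes rose. The median log2 fold change was 1.35 over the members and -0.03 over all tested genes, and in 15 of the 24 the groups did not overlap, against 26.1% of all tested genes. The number of members called fell from 21 to 16 without MI replicate 1 and to 15 without FAPI replicate 4. Of the called genes 60.1% were higher, and 14.6% with scaling by total counts, under which 14 members were called, all higher, with a member median of 0.94 against -0.44 for all genes.

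Both ribosomal RNAs rose. The level of mt-Rnr1 was 5658, 10170, 6905 and 7523 CPM in FAPI hearts, 3.37-fold that of MI (log2 change 1.75, SE 0.341, edgeR adjusted p = 0.00134). That of mt-Rnr2 was 18610, 25280, 19890 and 22130 CPM, 3.36-fold that of MI (log2 change 1.75, SE 0.281, edgeR adjusted p = 0.000367). Every FAPI heart was above every MI heart for both.

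Among the complex I genes mt-Nd1 reached 11480, 15050, 13460 and 18840 CPM in FAPI hearts, 2.73-fold the MI level (log2 change 1.45, SE 0.258, edgeR adjusted p = 0.000718). The level of mt-Nd2 was 15490, 20840, 14590 and 24230 CPM, 2.95-fold that of MI (edgeR adjusted p = 0.000413). Replicates 2 and 4 were the higher FAPI hearts for both genes, and no FAPI heart overlapped the MI hearts. The rise was 2.90-fold for mt-Nd4, 3.24-fold for mt-Nd5 and 2.54-fold for mt-Nd6 (log2 fold changes 1.54, 1.70 and 1.34, SE 0.251, 0.259 and 0.226). The level of mt-Nd3 was 180.7, 253.8, 336.9 and 246.2 CPM, 4.06-fold that of MI (log2 change 2.02, SE 0.304, edgeR adjusted p = 0.000251), the largest fitted rise among the 24 tested members. The part of Gm28438 in the counts of the pair was 14.4 to 28.7% in MI and 3.38 to 9.06% in FAPI hearts. The size of the mt-Nd3 rise is therefore uncertain.

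The complex III gene mt-Cytb was at 23480, 30110, 21700 and 36020 CPM in FAPI hearts, 2.55-fold the MI level (log2 change 1.35, SE 0.251, edgeR adjusted p = 0.000969). The complex IV gene mt-Co1 was at 3755, 4975, 3614 and 5166 CPM, 3.26-fold the MI level (log2 change 1.71, SE 0.218, edgeR adjusted p = 0.000111). Neither overlapped the MI hearts. For mt-Atp6, at 0.861, 0.438, 0.866 and 1.41 CPM, the groups overlapped (log2 change 1.07, SE 0.336, edgeR adjusted p = 0.0239), and the call was lost without FAPI replicate 4, MI replicate 1 or MI replicate 2.

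Of the transfer RNAs, mt-Tq reached 5701, 6998, 5338 and 8980 CPM in FAPI hearts, 2.19-fold the MI level (log2 change 1.13, SE 0.242, edgeR adjusted p = 0.00255). The leucine transfer RNA mt-Tl1 was at 4.41, 4.93, 4.60 and 6.001 CPM against 0.804, 1.16, 2.33 and 2.23 in MI, 3.09-fold higher (edgeR adjusted p = 0.000334). Neither gene overlapped between the groups. The level of mt-Tp was 79.1, 65.1, 72.9 and 107.4 CPM, with a log2 change of 0.14 (SE 0.192, edgeR adjusted p = 0.629), and its FAPI and MI hearts overlapped. Among the 10 called transfer RNA genes, mt-Ta, mt-Tc, mt-Ti, mt-Tr and mt-Tt lost the call without FAPI replicate 4 (adjusted p = 0.0743, 0.156, 0.0965, 0.0874 and 0.0831). The first 4 of these also lost it without MI replicate 1 (0.0573, 0.133, 0.0959 and 0.0952). The change was 0.53 for mt-Te (adjusted p = 0.0896) and 0.57 for mt-Tl2, which also did not pass. Gm28438 did not pass either (-0.38, adjusted p = 0.144), and Gm10222 was 1.92-fold higher in FAPI (log2 change 0.94, SE 0.219, adjusted p = 0.00445).

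Hearts without Fap were compared with the same MI hearts, so this comparison shares its controls with the one before. Of the 24 tested members 20 were higher in FapKO hearts, none was lower and 4 did not pass the test, where 51.0% of all tested genes were called and 25.0% were called higher. All 9 tested messenger RNA genes, both ribosomal RNA genes and 9 of 13 transfer RNA genes rose. The median log2 fold change was 1.68 over the members and -0.08 over all tested genes, and in 17 of the 24 the groups did not overlap, against 45.4% of all tested genes. Of the called genes 49.1% were higher, and 16.6% with scaling by total counts, under which 17 members were called higher and 1 lower with a member median of 1.16 against -0.63 for all genes.

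In FapKO hearts mt-Rnr1 was at 8269, 7713, 7123 and 11420 CPM, 3.85-fold the MI level (log2 change 1.94, SE 0.343, edgeR adjusted p = 0.000202). The level of mt-Rnr2 was 23120, 21530, 20440 and 24310 CPM, 3.50-fold that of MI (edgeR adjusted p = 6.49e-05). All FapKO hearts lay above all MI hearts, and replicate 4 was the highest for mt-Rnr1. For complex I, mt-Nd1 was at 19250, 17230, 21640 and 19500 CPM, 3.6-fold the MI level (log2 change 1.85, SE 0.261, edgeR adjusted p = 2.64e-05), and mt-Nd2 at 27090, 23700, 29720 and 23610 CPM, 4.08-fold (edgeR adjusted p = 1.03e-05). The rise was 3.54-fold for mt-Nd4, 4.06-fold for mt-Nd5 and 3.53-fold for mt-Nd6, and no group overlapped. For mt-Nd3, at 254.8, 283, 226.7 and 374.4 CPM, it was 4.55-fold (log2 change 2.19, SE 0.306, edgeR adjusted p = 2.49e-05). Its size is uncertain here as well, since Gm28438 took 4.97 to 8.29% of the pair in FapKO hearts, less than in MI.

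The level of mt-Cytb was 36100, 31440, 39790 and 33700 CPM in FapKO hearts, 3.23-fold the MI level (log2 change 1.69, SE 0.253, edgeR adjusted p = 4.49e-05). That of mt-Co1 was 4913, 5041, 4237 and 3486 CPM, 3.29-fold (log2 change 1.72, SE 0.218, edgeR adjusted p = 9.87e-06), and that of mt-Atp6 was 1.54, 1.12, 1.62 and 1.36 CPM, 3.27-fold (edgeR adjusted p = 0.000417). None of the 3 overlapped with MI. Of the transfer RNAs mt-Tq was at 11340, 7161, 10170 and 7465 CPM, 2.93-fold the MI level (log2 change 1.55, SE 0.245, edgeR adjusted p = 7.37e-05), and mt-Tt rose 3.96-fold (log2 change 1.98, SE 0.380, edgeR adjusted p = 0.000405). The level of mt-Tp was 64.7, 55.2, 52.4 and 46.3 CPM, with a log2 change of -0.43 (edgeR adjusted p = 0.0715). Also not past the test were mt-Tr (0.85, adjusted p = 0.0644), mt-Ts2 (0.65, adjusted p = 0.056) and mt-Tl2 (-0.12). Gm10222 was 3.74-fold higher in FapKO than in MI (adjusted p = 2.28e-06), and Gm28438 had a log2 fold change of 0.21 (adjusted p = 0.367).

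With the level of the cardiomyocyte markers entered as a covariate in the edgeR fit, 0 of the 24 members were called in MI against sham, in FAPI against MI or in FapKO against MI hearts. At an unadjusted p under 0.05 there were 3, 2 and 2. The same fit called 1117, 28 and 143 genes in all in these comparisons. The member median was -0.48, 0.16 and 0.16 on the log2 scale. Marker level and group moved together in these hearts, and their parts cannot be told apart.

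**Figure D4:**
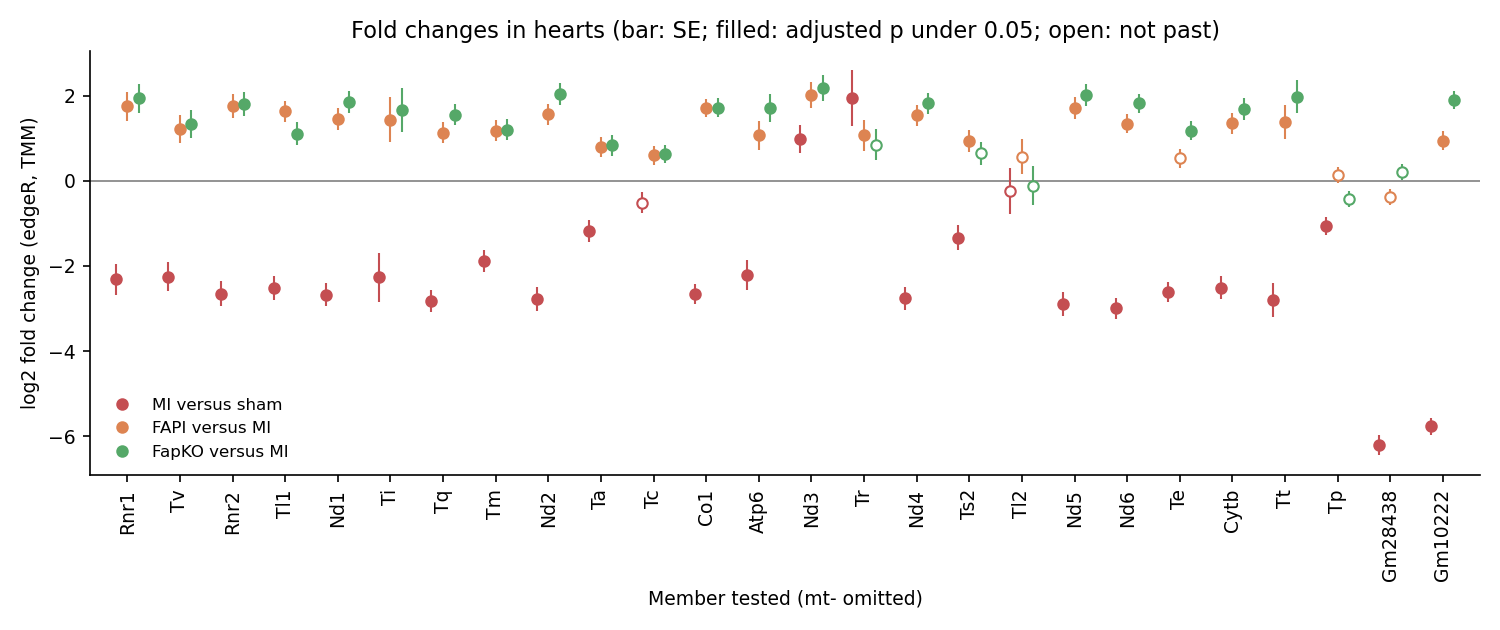
Log2 fold change with its approximate SE for the 24 tested members and the copies Gm28438 and Gm10222, in MI against sham, FAPI against MI and FapKO against MI hearts, with filled points for an edgeR adjusted p under 0.05. Nearly all members lie below 0 in MI against sham and above 0 in the other comparisons, with mt-Nd3 and mt-Tr above 0 in all 3.

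The FAPI and FapKO hearts were set against each other directly. None of the 24 members was called by edgeR, where 13.2% of all tested genes were, 7.05% higher and 6.12% lower. At an unadjusted p under 0.05 there were 4: mt-Te (log2 change -0.65, adjusted p = 0.0575), mt-Tp (0.57, adjusted p = 0.0614), mt-Tl1 (0.51, adjusted p = 0.169) and mt-Nd6 (-0.47, adjusted p = 0.167). DESeq2 called 2, mt-Te and mt-Tp, and limma-voom called 0. The mean level was higher in FapKO than in FAPI hearts for 19 of the 24. Gm10222 was lower in FAPI than in FapKO hearts (log2 change -0.96, SE 0.186, edgeR adjusted p = 0.00336). The median over the members was -0.18, and of the genes called 53.5% were higher in FAPI, or 67.8% with scaling by total counts.

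Against sham hearts most members were still low in FAPI and FapKO hearts, in comparisons that share the sham hearts with the first one. In FAPI hearts 16 of the 24 were lower, 2 were higher and 6 did not pass, where 55.8% of all tested genes were called and 26.5% were called lower. In FapKO hearts 14 were lower, 2 were higher and 8 did not pass, where 39.5% were called and 20.3% were called lower. That count of 16 calls in FapKO against sham was 9 without sham replicate 2 and 10 without FapKO replicate 2, and mt-Cytb, mt-Nd1 and mt-Nd2 were among the calls lost in both cases (adjusted p = 0.0581 to 0.0923). With scaling by total counts the genes called higher went from 52.4 to 86.8% of calls for FAPI and from 48.7 to 91.7% for FapKO, and 11 and 8 members were called.

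As a share of the sham mean, mt-Cytb stood at 17.6% in MI, 44.8% in FAPI and 56.8% in FapKO hearts. For mt-Co1 these were 15.8, 51.5 and 51.9%. For mt-Nd6 they were 12.6, 32.1 and 44.6%, and for mt-Tq 14.1, 31.0 and 41.4%. The ribosomal RNA mt-Rnr1 stood at 20.2% in MI, 68.2% in FAPI and 77.8% in FapKO hearts. Its difference from sham did not pass in FAPI (log2 change -0.55), and its sign turned without sham replicate 3 (0.02 in FAPI and 0.21 in FapKO). The cysteine transfer RNA mt-Tc stood at 70.6, 106.7 and 108.7% in the same order. The transfer RNA mt-Tp stood at 47.9, 52.6 and 35.4%. The order sham, FapKO, FAPI, MI held for the means of 17 of the 24 members, and the mean was lowest in MI for 20, the exceptions being mt-Nd3, mt-Tl2, mt-Tp and mt-Tr.

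The higher members in both were mt-Nd3 and mt-Tr. For mt-Nd3 the level was 8.10-fold that of sham in FAPI and 9.06-fold in FapKO hearts (log2 fold changes 3.02 and 3.18), with no overlap. The mt-Tr counts were 30, 29, 19 and 36 in FAPI and 20, 23, 13 and 27 in FapKO hearts against 0, 2 and 3 in sham. Per effective library size these were 8.43 times (exact 95% interval 3.51 to 26.5) and 7.25 times (2.99 to 22.9) the sham counts, by counting error alone. Here too mt-Tr passed the filter only through infarcted hearts, where it was high, so its calls are no separate support.

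The balance between neighbouring members also varied. The ratio of mt-Nd6 to mt-Nd5 counts, from genes that end in the same 14 bases on opposite strands, was 0.947 to 1.18 in sham hearts, 0.883 to 1.16 in MI, 0.698 to 0.822 in FAPI and 0.788 to 0.961 in FapKO hearts. The FAPI hearts lay below all MI and sham hearts, which was not tested. The ratio of mt-Rnr2 to mt-Rnr1 counts was 3.897 ± 0.813 (SD, n = 3) in sham and 2.89 ± 0.530, 2.90 ± 0.330 and 2.65 ± 0.347 (SD, n = 4) in MI, FAPI and FapKO hearts. The sham range overlapped those of MI and FAPI, and the FapKO range lay below it. Of the counts of the 13 messenger RNA genes, mt-Cytb took 33.5% in sham, 37.5% in MI, 34.2% in FAPI and 33.8% in FapKO hearts.

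Nuclear genes of the same machinery were read from lists. Of all tested genes 32.0% were called lower in MI against sham. In FAPI against MI 17.9% were called higher, and in FapKO against MI 25.0%. All 36 listed nuclear genes of complex I, all 9 of complex III, all 13 of complex IV and all 15 of complex V were lower in MI than in sham hearts. In FAPI against MI hearts 36, 9, 12 and 15 of these were higher, and in FapKO against MI the counts were again 36, 9, 12 and 15. The complex I gene Ndufs1 had log2 fold changes of -2.97 in MI against sham, 1.38 in FAPI against MI and 1.73 in FapKO against MI. The muscle-type complex IV gene Cox7a1 had -4.21, 1.93 and 2.99 in the same order, where the complex IV list medians were -2.86, 1.26 and 1.65. Cox7a1 was lower in FAPI than in FapKO hearts (-1.06, edgeR adjusted p = 0.014). In that direct comparison 10 of the 73 nuclear subunit genes were lower in FAPI, and none was higher. Of all tested genes 13.2% were called there, a share near that of the list, and 6.12% were called lower.

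Genes that copy and transcribe mitochondrial DNA moved less uniformly. Of 23 tested, 14 were lower and 2 higher in MI than in sham hearts. There 69.1% of all tested genes were called, a share near that of the list. In FAPI against MI 11 were higher and 1 lower, where 29.8% of all tested genes were called. In FapKO against MI 13 were higher and none lower, where 51.0% of all tested genes were called. The mitochondrial RNA polymerase Polrmt had mean levels of 8.32 CPM in sham, 4.19 in MI, 4.79 in FAPI and 7.10 in FapKO hearts. It fell in MI (log2 change -0.99, edgeR adjusted p = 3.47e-06) and was higher in FapKO than in MI (0.76, adjusted p = 5.8e-05). In FAPI against MI it did not pass (0.19, adjusted p = 0.237), and it was lower in FAPI than in FapKO hearts (-0.57, adjusted p = 0.00468). The packaging and transcription factor Tfam averaged 25.9, 12.3, 16.8 and 21.1 CPM in sham, MI, FAPI and FapKO hearts, with log2 fold changes of -1.07 in MI against sham, 0.45 in FAPI against MI and 0.78 in FapKO against MI, each past the edgeR threshold. Tfb2m, needed to start transcription, had -1.61, 1.07 and 1.42 in the same order, and Mterf2, of the family of transcription termination factors, -2.41, 1.23 and 1.77. Tfb2m and Mterf2 are named for the smallest edgeR p in FAPI against MI. The list medians were -1, 0.27 and 0.52.

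Genes for cutting and stabilising mitochondrial RNA were counted in the same way: 17 of 19 were lower in MI than in sham and 1 higher. Of them 14 were higher in FAPI than in MI and 13 in FapKO than in MI, with none lower in either. Of all tested genes 32.0% were called lower in MI than in sham. The shares called higher were 17.9% in FAPI against MI and 25.0% in FapKO against MI. Lrpprc, which stabilises mitochondrial messenger RNAs, averaged 51.5 CPM in sham, 14.7 in MI, 23.8 in FAPI and 35.9 in FapKO hearts, with log2 fold changes of -1.81, 0.70 and 1.29. Fastk had -2.74, 1.15 and 1.73, and Ptcd3 -2.13, 1.15 and 1.52. Both are named for the smallest edgeR p in FAPI against MI, and the list medians were -1.51, 0.64 and 0.81. Of the genes that modify mitochondrial transfer and ribosomal RNA, 16 of 17 were lower in MI than in sham, 9 higher in FAPI than in MI and 12 higher in FapKO than in MI. Osgepl1, which modifies mitochondrial transfer RNAs, had -3.11, 1.39 and 1.92, and the methyltransferase Trmt5 -2.74, 1.09 and 1.74. These genes were picked in the same way, and the list medians were -1.22, 0.39 and 0.51.

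Of 12 listed regulators of mitochondrial biogenesis, 8 were lower and 2 higher in MI than in sham hearts. In FAPI against MI 7 were higher and 1 lower, and in FapKO against MI 7 were higher and 3 lower. Of all tested genes 37.1% were called higher and 32.0% lower in MI against sham. The shares were 17.9 and 11.9% in FAPI against MI, and 25.0 and 25.9% in FapKO against MI. The coactivator Ppargc1a averaged 100 CPM in sham, 9.36 in MI, 28.9 in FAPI and 46.0 in FapKO hearts, and the nuclear receptor Esrra 16.1, 3.42, 6.72 and 9.32. Both passed the test in MI against sham (-3.42 and -2.23), FAPI against MI (1.63 and 0.97) and FapKO against MI (2.30 and 1.44). The list medians were -2.13, 0.99 and 1.58. Of 7 sensors of mitochondrial nucleic acid and their adaptors, 6 were higher and 1 lower in MI than in sham. In FAPI against MI 1 was higher and 3 were lower, and in FapKO against MI 1 was higher and 6 were lower. The lower one after infarction was the adaptor Mavs (-1.57), which was higher than in MI in FAPI (0.74) and FapKO hearts (0.90). The nucleic acid sensor Zbp1 rose in MI (2.69), was lower than in MI in FAPI (-0.48) and FapKO hearts (-2.21), and was higher in FAPI than in FapKO hearts (1.73, edgeR adjusted p = 6.12e-08). The sensor list medians were 1.83, -0.47, -1.08 and 0.73 in the same order, and Zbp1 was the extreme of the list in all but FAPI against MI.

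In cultured fibroblasts, apart from the hearts, the members were a small share of counts and mt-Tq stood out. The 37 genes took 2.18% ± 0.181 of the counts in coculture and 1.32% ± 0.200 alone (SD, n = 3 each). Without mt-Tq the shares were 1.27% ± 0.114 and 1.18% ± 0.248, and these ranges overlapped. Its part of the mitochondrially encoded counts was 42.2% ± 0.694 in coculture and 11.8% ± 5.93 alone.

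Of the 13 tested members 9 were higher in coculture, none was lower and 4 did not pass the test, where 59.8% of all tested genes were called and 30.3% were called higher. The median log2 fold change was 0.66 over the members and -0.06 over all tested genes, and in 9 of the 13 the groups did not overlap, a share near the 67.0% of all tested genes. Of the called genes 50.7% were higher, and 32.7% with scaling by total counts, under which 6 members were called, all higher, with a member median of 0.31 against -0.41 for all genes. Coculture libraries were sorted and the others were not, and every coculture library held fewer counts than every library alone. The sort, the endothelial cells and the depth therefore cannot be told apart. Macrophage markers summed to 407.39 to 526.63 CPM in coculture and 909.15 to 1452.9 alone, with 10 of 12 lower in coculture. Fibroblast markers summed to 12386 to 13479 and 5591 to 11728 CPM, with 7 of 12 higher in coculture, 2 lower and 3 not past the test. Of the 6 tested endothelial markers 2 were higher in coculture and 4 did not pass, with a median log2 change of -0.04. Their summed level, 337.46 to 383.7 CPM in coculture and 178.35 to 197.5 alone, was mostly Eng (311.1 to 352 and 155 to 174.5 CPM), and the defining marker Pecam1 was at 0 to 0.697 and 0.942 to 1.19 CPM. Their part in the result was not tested.

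The glutamine transfer RNA mt-Tq was at 11450, 9998 and 9584 CPM in coculture and at 996.6, 2083 and 987.7 alone, 7.63-fold higher (log2 change 2.93, SE 0.295, edgeR adjusted p = 4.79e-05). The proline transfer RNA mt-Tp was at 287.9, 272 and 283.7 CPM in coculture and at 71.1, 68.2 and 79.3 alone, 3.86-fold higher (log2 change 1.95, SE 0.108, edgeR adjusted p = 1.88e-06). For mt-Tc the level was 4.35, 6.92 and 4.71 CPM against 1.65, 1.83 and 1.45, 3.24-fold higher (edgeR adjusted p = 0.000748). All 3 were higher in every coculture library, and no other transfer RNA passed the filter. These are genes of the minus strand of the reference, and whether their counts came from mature transfer RNA or from longer RNA was not tested.

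The messenger RNAs differed among themselves. The complex IV gene mt-Co1 was at 1348, 1325 and 1241 CPM in coculture and at 347, 407.2 and 299.4 alone, 3.72-fold higher (log2 change 1.89, SE 0.134, edgeR adjusted p = 6.94e-06). For mt-Nd2 the values were 2129, 1729 and 1629 against 745.7, 724.2 and 733.8 CPM, 2.49-fold higher (log2 change 1.32, SE 0.127, edgeR adjusted p = 3.77e-05). Both rose without overlap. So did mt-Nd3, at 43.5, 45.3 and 70.7 against 17.4, 6.91 and 21.1 CPM (3.50-fold, edgeR adjusted p = 0.00256). The changes of mt-Nd4 (1.58-fold) and mt-Nd1 (1.46-fold, adjusted p = 0.0186) were smaller, and that of mt-Nd6 was 1.31-fold (log2 change 0.38, adjusted p = 0.0322). The mt-Nd1 call was lost without coculture replicate 1 (adjusted p = 0.0751) or 3 (0.052). The mt-Nd6 call was lost without coculture replicate 1 (0.119), alone replicate 1 (0.107) or alone replicate 3 (0.0949).

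In contrast mt-Cytb was at 5145, 3948 and 3836 CPM in coculture and at 4833, 4328 and 4152 alone, with overlapping groups (log2 change -0.04, edgeR adjusted p = 0.818). It took 39.0% of the messenger RNA counts of the 13 genes in coculture and 55.9% alone. The ribosomal RNAs mt-Rnr1 (0.11, adjusted p = 0.825) and mt-Rnr2 (0.38, adjusted p = 0.146) and the complex I gene mt-Nd5 (0.33, adjusted p = 0.0879) did not pass either. The values of mt-Rnr1 alone were 347.7, 305.1 and 955.5 CPM, with replicate 3 the highest. Without that library mt-Rnr1 (0.81, adjusted p = 0.00191), mt-Rnr2 (0.66, adjusted p = 0.00566) and mt-Nd5 (0.48, adjusted p = 0.0203) were called higher, and 11 members in all. Of the copies, Gm28438 had 0 to 3 counts and Gm10222 0 to 1 per library. The copies of mt-Co3 and mt-Co1 passed the filter and were higher in coculture: Gm28437 at 3.63, 4.24 and 4.36 CPM against 0.236, 0.477 and 0.161 (log2 change 3.85, edgeR adjusted p = 5.01e-05), and Gm29216 at 4.11, 2.68 and 2.09 against 0.471, 0.794 and 0.107 (2.74, adjusted p = 0.00282). In the libraries cultured alone Gm28437 had 3 to 6 counts and Gm29216 had 2 to 10. Both genes passed the filter only through coculture, where they were high, so these p-values are no separate support for a difference.

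**Figure D5:**
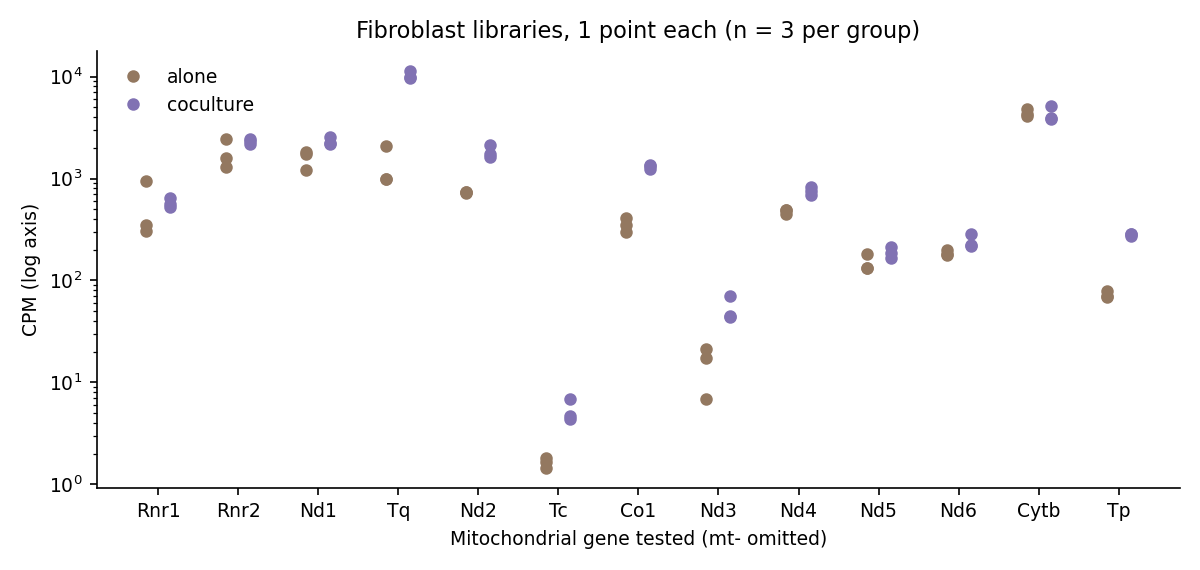
CPM of the 13 tested members in fibroblasts cultured with endothelial cells and alone, 1 point per library, on a logarithmic axis. The groups stand apart for mt-Tq, mt-Tp, mt-Co1 and mt-Nd2 and overlap for mt-Cytb and both ribosomal RNAs.

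Of all genes tested in the fibroblasts 30.3% were called higher in coculture and 29.5% lower. Of the nuclear subunit genes 27 of 36 of complex I were higher and 1 lower, and 5 of 9 of complex III were higher and none lower. For complex IV 10 of 13 were higher and 1 lower, and for complex V 7 of 15 were higher and 1 lower. Of 21 tested genes for mitochondrial DNA transcription and maintenance 3 were higher and 6 lower, the latter a share near that of all tested genes. Among the lower were Tfam (log2 change -0.70, edgeR adjusted p = 0.0145) and Tfb2m (0.502-fold, adjusted p = 0.00378). Polrmt did not pass (0.53, adjusted p = 0.124). For RNA processing 3 of 19 were higher and 8 lower, among them Lrpprc (-0.73, adjusted p = 0.0498) and Ptcd3 (-1.43, adjusted p = 0.00598).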

How the data were processed

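Sequencing reads of 15 hearts and 6 fibroblast libraries had been aligned with STAR to mm10 and counted per gene with HTSeq, per the submitters' processing notes; versions and strand settings were not given in the sources used here. The deposited files hold whole-number counts per Ensembl gene, one table per sample, and the heart libraries carried UMI barcodes per the labels' protocols. A series-wide table with 6 columns that match no sample label was not used. Identifiers were matched to GENCODE M21 without version numbers (53620 of 53801). No entry lacked a gene.

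Tests used edgeR 4.0.16 in R 4.3.3: filterByExpr, TMM factors (0.6261 to 0.6971 in sham and 1.241 to 1.548 in MI hearts), and the quasi-likelihood F test with Benjamini-Hochberg adjustment over all tested genes. All 15 hearts shared one fit and the 6 fibroblast libraries another. CPM are TMM-scaled, and an SE is approximate, being the log2 change over the root of the F statistic. DESeq2 1.42.0, limma 3.58.1 (voom), total-count scaling, no filter, a cardiomyocyte covariate, a replicate block and leaving out each library were alternatives. The fits were also run on simulated data in which few genes were changed, up or down at random. That run does not cover shifts as wide as those between these groups. Sequences were read from the mm10 reference and copies aligned with biopython 1.88.

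The members and lists were chosen with earlier results of these data known. Every member that passed the filter could be named; of each pathway list, the 2 genes with the smallest p in FAPI against MI; and Polrmt, Tfam, Lrpprc, Ppargc1a, Esrra, Fap and the other chromosome 1 copies. Members under the filter are given by counts and ranges.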

Additional observations from a re-analysis of the deposited data

Results flagged for a closer look

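Dixon's criterion was applied to 45 measures in each of the 3 groups of 4 hearts, 135 tests in all. In 9 of them 1 library lay far from the other 3, and chance alone gives about 1 in 20 per test. Several measures share the same counts, so the tests are not independent. In MI replicate 3 mt-Co1 was at 2008 CPM against 1061 to 1152 in the other MI hearts. In FAPI replicate 3 mt-Tr was at 0.568 CPM against 1.03 to 1.06, mt-Nd3 took 0.341% of the mitochondrially encoded counts against 0.173 to 0.195%, and mt-Nd3 with Gm28438 took 0.353% against 0.180 to 0.205%. In FAPI replicate 1 Gm28438 was at 18.01 CPM against 10.5 to 11.8, Gm10222 at 0.999 CPM against 0.635 to 0.694, and Gm28438 took 9.06% of the counts of its pair against 3.38 to 4.09%. In FapKO replicate 1 mt-Nd5 was at 3083 CPM against 3390 to 3416. In FapKO replicate 4 the ratio of mt-Rnr2 to mt-Rnr1 counts was 2.13 against 2.79 to 2.87.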

How the results depend on the processing

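Calls of mt-Nd1, mt-Nd2, mt-Nd4, mt-Nd5, mt-Nd6, mt-Cytb and mt-Co1 rest on 500 or more CPM in every heart, while most transfer RNA genes and mt-Atp6 rest on few counts. The alternatives with copies added, with mt-Tq left out and without 1 fibroblast library were chosen after the data were seen, and the causes of the changes below were not tested unless the setting itself shows them.

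With total-count scaling, log2 fold changes in MI against sham were 0.57 for mt-Tc and 0.01 for mt-Tp. FAPI against MI had 9932 called genes and -0.27 for mt-Tp, and Gm28438 had -0.33 in FapKO against MI. Members called were 1 in FAPI against FapKO, 11 in FAPI against sham and 8 in FapKO against sham, with mt-Rnr1 at 0.07 and 0.15 in the last comparisons. In coculture against alone mt-Nd5 was at -0.02 and mt-Rnr1 at -0.28.

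With the cardiomyocyte covariate, genes called were 1117 in MI against sham, 28 in FAPI against MI, 143 in FapKO against MI and 5369 in FAPI against sham. Members called were 0, 0, 0 and 5 in these, 2 in FAPI against FapKO and 9 in FapKO against sham. Directions turned in MI against sham for mt-Ta (0.92), mt-Tc (0.94), mt-Tp (0.21) and mt-Ts2 (0.44). In FAPI against MI they turned for mt-Ta (-0.45), mt-Tc (-0.27), mt-Te (-0.51), mt-Tp (-0.63), mt-Tq (-0.11), mt-Ts2 (-0.12) and mt-Tv (-0.06). In FapKO against MI they turned for mt-Ta (-0.75), mt-Tc (-0.48), mt-Te (-0.13), mt-Tl1 (-0.28), mt-Tm (-0.06), mt-Tq (-0.0036) and mt-Tv (-0.27), and in FAPI against sham for mt-Rnr1 (0.02).

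With copies added, mt-Nd3 was at -3.99, -2.23 and -2.05 in MI, FAPI and FapKO against sham. In FAPI against FapKO 2 members were then called, and 3 without the filter, 2 with DESeq2 and 3 with only the 2 groups in the fit. Without the ribosomal RNA genes the share of counts was 14.1% in sham, 9.32% in FAPI, 11.1% in FapKO, 1.93% in coculture and 1.06% alone. Without mt-Tq it was 13% in FapKO hearts and 1.27% in coculture. Of the messenger RNA counts mt-Cytb took 33.5, 37.5, 34.2, 33.8, 39.0 and 55.9% in sham, MI, FAPI, FapKO, coculture and alone.

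Leaving out each library in turn gave 10803 to 11597 called genes in MI against sham, 3359 to 5494 in FAPI against MI, 7383 to 8681 in FapKO against MI, 1125 to 2920 in FAPI against FapKO, 8067 to 9539 in FAPI against sham, 4706 to 6832 in FapKO against sham and 6404 to 7808 in coculture against alone. Members called were 20 to 23, 15 to 21, 19 to 22, 0 to 1, 15 to 18, 9 to 15 and 7 to 11 in the same order. Shares of counts ranged over 15.7 to 17.9% in sham hearts, 4.79 to 6.08% in MI, 11.6 to 12.4% in FAPI, 13.6 to 14.0% in FapKO, 2.08 to 2.23% in coculture and 1.25 to 1.44% alone. The part of Gm28438 in its pair ranged over 97.3 to 97.7%, 20.8 to 25.5%, 3.83 to 5.72%, 5.87 to 6.98%, 0.916 to 1.28% and 0.169 to 0.547%, and that of mt-Cytb in all members' counts over 23.2 to 25.5%, 25.6 to 27.6%, 23.1 to 24.2%, 23.9 to 24.7%, 16.8 to 17.9% and 36.1 to 40.3%. Signs turned for mt-Tp in FAPI against MI without FAPI replicate 4 (range -0.03 to 0.28), and for mt-Rnr1 without sham replicate 3 in FAPI (range -0.81 to 0.02) and FapKO (range -0.62 to 0.21) against sham. In coculture against alone they turned for mt-Cytb without coculture replicate 2 (0.01), coculture replicate 3 (0.03) or alone replicate 1 (0.0059), and for mt-Rnr1 without alone replicate 1 (-0.15) or 2 (-0.19), over a range of -0.19 to 0.81.

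With the replicate number as a block, members called were 23 in MI against sham, 20 in FAPI against MI, 22 in FapKO against MI, 0 in FAPI against FapKO, 18 in FAPI against sham, 14 in FapKO against sham and 8 in coculture against alone. Deviations of libraries that share a number correlated at -0.294 to 0.322 in the hearts (mean 0.054), with 7 of 21 pairs over 0.1. Heart libraries of different numbers correlated at -0.379 to 0.451 (mean -0.018), with 15 of 63 pairs over 0.1. In the fibroblasts the ranges were -0.183 to 0.064 for shared and -0.12 to 0.184 for different numbers. No clear pairing by number was seen, and a weak one remains possible.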
